A study of Mus musculus with 6 samples.

Results

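Genes of the cytosolic ribosomal proteins were described in tumour-derived F4/80+ cells on mouse gene expression arrays. F4/80 is a surface protein of macrophages. The tumours had grown after implantation in wild type mice (3 samples) or in St2-/- mice (3 samples), which lack ST2, the receptor of IL-33. The labels name neither the tumour nor the age, strain or number of the mice, nor the tumour's own genotype, and the loss of ST2 refers to the host. Each sample had 1 array. No source used here says that the samples of a group came from different mice, so the spread behind each p-value may be technical.

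Members were selected by gene symbol: symbols beginning with Rpl or Rps followed by a digit, and the P-stalk genes and Rpsa, without the Rps6k kinases and the pseudogenes named as such. For a gene with several probe sets of that symbol alone, the probe set with the greatest 6-array mean was used, whatever the genotype. The rule gave 63 genes of 19938 tested, of which 54 encode proteins of the usual ribosome, 33 of the large (60S) and 21 of the small (40S) subunit. The other 9 are the paralogs Rpl3l, Rpl7l1, Rpl32l, Rpl39l, Rps4l and Rps27l, the retrogenes Rpl10l and Rps23rg1, and Rps19bp1, the gene of a protein that binds RPS19 and is no part of the ribosome. The usual set is not complete here, since 20 further symbols that meet the rule occurred only in probe sets that also name other genes.

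Each cytosolic ribosome joins a small subunit, which reads the messenger RNA, to a large subunit, which forms the peptide bond. Ribosomal proteins are made in matched amounts and assembled with ribosomal RNA in the nucleolus. Their messenger RNAs carry a terminal oligopyrimidine (TOP) tract at the first base, through which growth signals by way of mTOR and LARP1 set how much of them is translated. Activated immune cells and dividing cells are known to raise ribosome production.

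Levels below are deposited log2 values, and differences are St2-/- minus wild type. A gene was called higher or lower at a Benjamini-Hochberg adjusted p under 0.05 over all 19938 genes in limma. As to the labelled cell type, all 13 macrophage markers measured lay above the median level of all genes, 3 called higher and 3 lower. The 3 that fell, also those with the smallest p, were the scavenger receptor gene Msr1 (-0.76), Mertk, a receptor for the uptake of dead cells (-0.72), and the lysozyme gene Lyz2 (-0.71), and those that rose were Aif1 (0.59), the Fc receptor gene Fcgr1 (0.36) and Adgre1, the gene of F4/80 (0.31). Csf1r, the receptor of the macrophage growth factor, averaged 12.07 and 12.11 in wild type and St2-/-, Cd68 12.57 and 12.53, and Adgre1 11.32 and 11.63. The median over all genes was 5.88 to 5.93 on wild type arrays and 5.81 or 5.82 on St2-/- arrays.

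Ribosomal protein genes were slightly higher in St2-/-. Of the 63 members 26 (41.3%) were called higher and 0 lower, against 20.8% of all genes called in either direction, 10.7% higher and 10.0% lower. By unadjusted limma p under 0.05, 38 members were higher and 2 lower, against 3211 and 3360 of all 19938 genes. Of the 1948 other genes in the brightest 10%, 694 were higher and 319 lower by that measure. A plain two-sample test called 0 members lower and 23 (36.5%) higher, of which 16 were among the 26 that limma called. The plain test called 7.43% of all genes and 23.6% of the other genes in the brightest 10% higher. The sizes were small: the median difference was 0.17 over the members and -0.02 over all genes, and the largest rise was 1.33-fold. The members' mean level was 10.158, 10.151 and 10.139 on the wild type arrays and 10.309, 10.295 and 10.316 on the St2-/- arrays. The groups did not overlap in this mean. It is not tested, because the genes were put together with earlier results of these data known.

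Most members have bright probe sets, and bright genes as a class stood higher in St2-/-. Among the 1948 other genes in the brightest 10%, 26.2% were called higher and 12.3% lower, with a median difference of 0.07. The 46 members in that class, all of the usual ribosome, had 24 called higher (52.2%) and 0 lower, with a median of 0.20. Every St2-/- array lay above every wild type array for 42 of the 63 members. The share of such genes was 18.1% over all genes and 42.7% over the other genes of the brightest 10%.

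The count of called members depended on the scaling. It was 40 (63.5%) with each array centred on its median, where 18.5% of all genes and 40% of the other genes of the brightest 10% were called higher. Of all genes 3686 were then called higher and 1294 lower, against 2142 and 1998 as deposited. After cyclic loess, which removes differences that follow the level, 7 (11.1%) were called, against 8.67% of all genes and 17.6% of the other genes of the brightest 10%. The members' share was thus below that of the other bright genes, while their median was 0.10 and that of the other bright genes -0.02. Arrays were also centred on the other genes of the brightest 10%, chosen after seeing the data. There 13 members (20.6%) were called with a median of 0.10, against 7.55% of all genes and 20.3% of the other bright genes. That centring turned the all-gene split to 1505 higher and 3290 lower. With 1 array left out, the count ran from 10 (15.9%, St2-/- replicate 3) to 18 (28.6%, wild type replicate 3). It was 16 (25.4%) without either wild type replicate 1 or 2, 13 (20.6%) without St2-/- replicate 1 and 15 (23.8%) without St2-/- replicate 2. In these settings 7.35% to 9.5% of all genes and 18.8% to 23.7% of the other genes of the brightest 10% were called higher. Without St2-/- replicate 3 the members' share was below the 18.8% of the other bright genes.

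**Figure D1:**
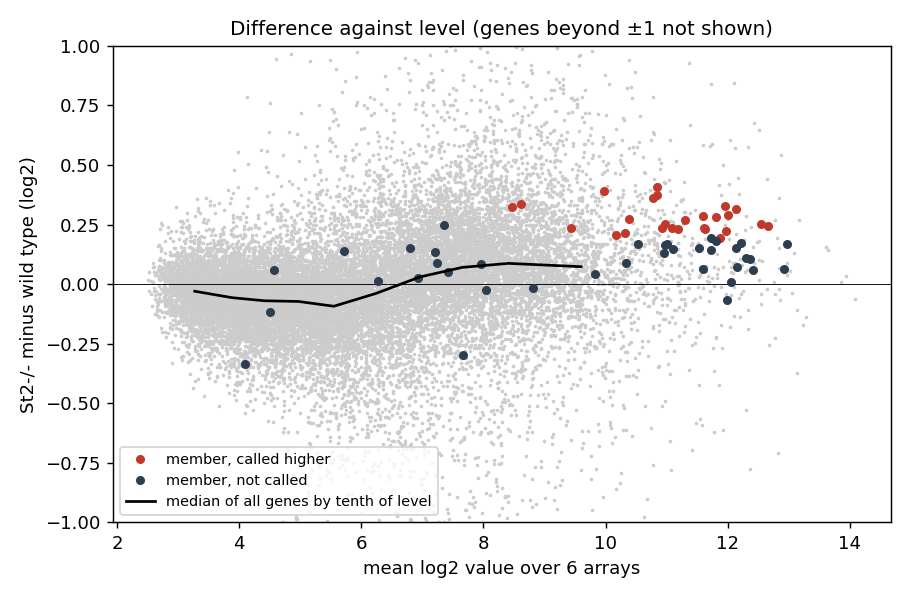
Difference between St2-/- and wild type (log2) against the mean log2 value over the 6 arrays, with 1 grey point per gene, members in red (called higher) or dark blue (not called), and a line through the medians of 10 level classes of all genes. Genes with a difference beyond ±1 are not shown. The line lies below 0 for dim genes, is highest at 0.09 in the class with a median level of 8.41, and is at 0.07 in the brightest class. Most members with a mean over 9 lie above 0.07.

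The 6 genes Rps20, Rps13, Rpl8, Rps21, Rpl19 and Rpsa were called higher as deposited and under each of the 16 alternatives run. Rps20, a protein of the small-subunit head (probe set 10511325), read 10.73, 10.61 and 10.57 in wild type and 11.09, 10.97 and 11.07 in St2-/-. All St2-/- arrays were above all wild type arrays, and the difference was 0.41 ± 0.07 (SE, n = 3 and 3), or 1.33-fold, with a limma adjusted p of 0.0028. Rps13, a protein of the small-subunit body whose gene also hosts small nucleolar RNAs (probe set 10567163), read 9.81, 9.81 and 9.71 in wild type and 10.16, 10.10 and 10.24 in St2-/-. The groups again did not overlap, with a difference of 0.39 ± 0.07 (SE, n = 3 and 3; limma adjusted p = 0.0028).

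Rpl8, a large-subunit protein near the peptidyl transferase centre (probe set 10425018), read 10.58, 10.75 and 10.64 in wild type and 11.04, 11.02 and 11.03 in St2-/-. Its St2-/- arrays were nearly equal and lay above the wild type arrays, a 1.30-fold difference (0.37 ± 0.07, SE; limma adjusted p = 0.00337). Rps21, a small-subunit protein (probe set 10479362), read 10.59, 10.66 and 10.55 in wild type and 10.96, 10.93 and 10.99 in St2-/-. Its difference was 0.36 ± 0.06 (SE; limma adjusted p = 0.00294), again with no overlap.

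Rpl19, a large-subunit protein that takes part in a bridge between the subunits (probe set 10556571), read 11.78, 11.85 and 11.74 in wild type and 12.12, 12.08 and 12.15 in St2-/-. It was 1.25-fold higher (0.33 ± 0.06, SE; limma adjusted p = 0.00526), and each of its 7 probe sets was called higher when all rows of the table were tested. Rpsa, known also as the laminin receptor precursor and bound at the side of the small subunit where the messenger RNA leaves (probe set 10373569), read 11.44, 11.43 and 11.49 in wild type and 11.72, 11.71 and 11.79 in St2-/-. The groups were apart by 0.29 ± 0.06 (SE; limma adjusted p = 0.00917).

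The next largest rises did not hold under all alternatives. Rps27l, a paralog of Rps27 known as a p53 target (probe set 10586604), read 8.46, 8.58 and 8.31 in wild type and 8.76, 8.84 and 8.76 in St2-/-, a difference of 0.34 ± 0.08 (SE; limma adjusted p = 0.0143). It was the only one of the 9 members outside the usual ribosome that was called, and lost its call after cyclic loess (0.0507), in a plain two-sample test (0.0821) and without St2-/- replicate 2 (limma adjusted p = 0.0565). Rps19, the gene most often mutated in Diamond-Blackfan anaemia (probe set 10551021), read 8.37, 8.38 and 8.17 in wild type and 8.57, 8.71 and 8.61 in St2-/-. Its difference of 0.32 ± 0.08 (SE; limma adjusted p = 0.0162) lost its call under the same 3 settings, with adjusted p-values of 0.0596, 0.0839 and 0.0644.

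Rps15, a protein of the small-subunit head near the decoding site, read 11.86, 12.07 and 12.01 in wild type and 12.33, 12.28 and 12.28 in St2-/-. Rps7, a small-subunit protein that can bind MDM2, read 11.81, 11.98 and 11.81, and then 12.17, 12.13 and 12.17. In both the St2-/- arrays were the higher ones throughout, by 0.32 and 0.29 (limma adjusted p = 0.012 and 0.0156). After cyclic loess the adjusted p-values were 0.0522 and 0.0626, and by a plain two-sample test 0.0554 and 0.0535. For Rps7 the limma adjusted p was also 0.0543 without wild type replicate 1, 0.0522 without St2-/- replicate 1 and 0.0574 without St2-/- replicate 3.

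The large-subunit genes Rpl6 and Rpl27 were 0.28 and 0.27 higher (limma adjusted p = 0.0123 and 0.0189). Rpl6 read 11.66, 11.69 and 11.64 in wild type and 11.94, 11.88 and 12.01 in St2-/-, and Rpl27 read 10.31, 10.15 and 10.26, and then 10.55, 10.46 and 10.53. Neither gene's groups overlapped. Rpl6 was called in each alternative other than without St2-/- replicate 3 (limma adjusted p = 0.0591). Rpl27 lost its call in 6 alternatives. Its adjusted p was 0.0529 by a plain two-sample test, and in limma 0.0988 after cyclic loess, 0.0542 with arrays centred on the brightest 10%, 0.0595 without wild type replicate 2, 0.0682 without St2-/- replicate 1 and 0.068 without St2-/- replicate 3.

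**Figure D2:**
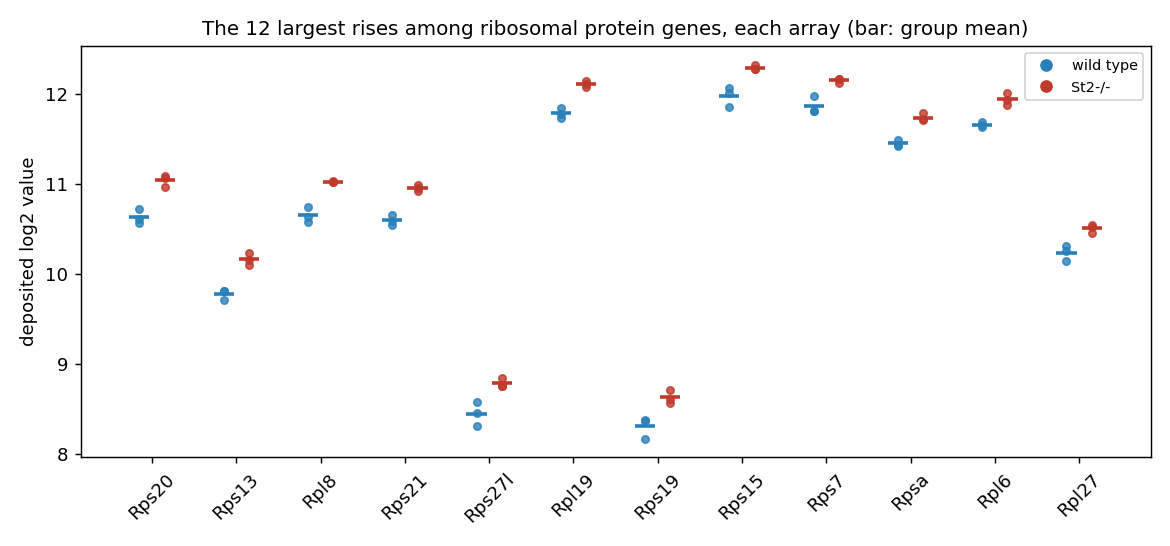
Deposited log2 values of the 12 members with the largest rise, with 1 point per array (blue wild type, red St2-/-) and a bar at each group's mean of 3 arrays. In each of the 12 genes the 3 red points lie above the 3 blue points, by group mean differences from 0.27 (Rpl27) to 0.41 (Rps20).

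The remaining 14 called members rose by 0.19 to 0.27 on the log2 scale. They are named here after their values were seen. Of the small subunit they were Rps10 (0.27), Rps14 (0.25), Rps29 (0.25), Rps3 (0.24), which also acts in DNA repair, Rps25 (0.24), Rps3a1 (0.24) and Rps9 (0.23). Of the large subunit they were Rpl28 (0.24), Rpl38 (0.24), Rpl4 (0.23), which lines the peptide exit tunnel, Rpl9 (0.22), Rpl24 (0.21), Rpl36 (0.21) and Rpl27a (0.19). None of these 14 was called after cyclic loess, and of them only Rps10 and Rps29 were called with arrays centred on the brightest 10%. Without St2-/- replicate 3, only Rps29 of the 14 was called. The threshold fell between Rpl27a (adjusted p = 0.0484) and Rps18 (0.0508) in limma, which both differed by 0.19.

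By subunit, 14 of 21 small-subunit genes (66.7%) and 11 of 33 large-subunit genes (33.3%) of the usual ribosome were called higher. Their median differences were 0.24 and 0.16. All 21 small-subunit genes had a positive difference, the smallest being that of Rps2 (0.01), and 31 of the 33 large-subunit genes did. Their median differences and shares are given as a description. Whether the subunits differ was not tested, since the genes were not chosen independently of these data. Of the genes listed for decoding and the messenger RNA path, 5 of 7 measured were higher (median 0.24). Of those listed for the peptide exit tunnel, 2 of 5 were higher (median 0.15). Lists this short cannot be set against the shares over all genes and bright genes.

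The P-stalk, which recruits the elongation factors to the large subunit, had no gene called by the probe set that stands for it. Rplp1 read 12.14, 12.08 and 12.17 in wild type and 12.36, 12.25 and 12.30 in St2-/-, with no overlap, and its difference of 0.17 ± 0.06 (SE) had a limma adjusted p of 0.0886. The other Rplp1 probe set, 10581495, differed by 0.25 and was called higher when all rows were tested (limma adjusted p = 0.0303). Rplp0, widely used as a reference gene in quantitative PCR, read 12.21, 12.25 and 12.26, and then 12.37, 12.29 and 12.39 (difference 0.11 ± 0.06, SE; limma adjusted p = 0.258). Rplp2 read 7.61, 7.33 and 7.24, and then 7.34, 7.49 and 7.50, with groups that overlapped (0.05 ± 0.10, SE). The genes at the base of the stalk were not called either: Rpl10 differed by 0.17 and Rpl12 by 0.13. At the 5S ribonucleoprotein, whose proteins can bind MDM2, Rpl5 differed by 0.18 ± 0.06 (SE; limma adjusted p = 0.077).

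Probe sets differ in brightness for the same amount of RNA, so the order of brightness here is no order of abundance. The brightest member was Rpl10, a late-joining protein of the large subunit encoded on the X chromosome. It read 12.89, 12.90 and 12.88 in wild type and 13.10, 13.00 and 13.07 in St2-/- (limma adjusted p = 0.0877). Rpl21 read 12.87, 12.93 and 12.87, and then 12.82, 13.04 and 13.00, so that its groups overlapped. Rpl28 read 12.51, 12.61 and 12.52, and then 12.77, 12.76 and 12.84. Of these 3 brightest members Rpl28 was called. Over the 54 genes of the usual ribosome, the difference and the level had a Pearson r of 0.19 and a Spearman rho of -0.02, given as a description because all genes share the same 6 arrays.

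**Figure D3:**
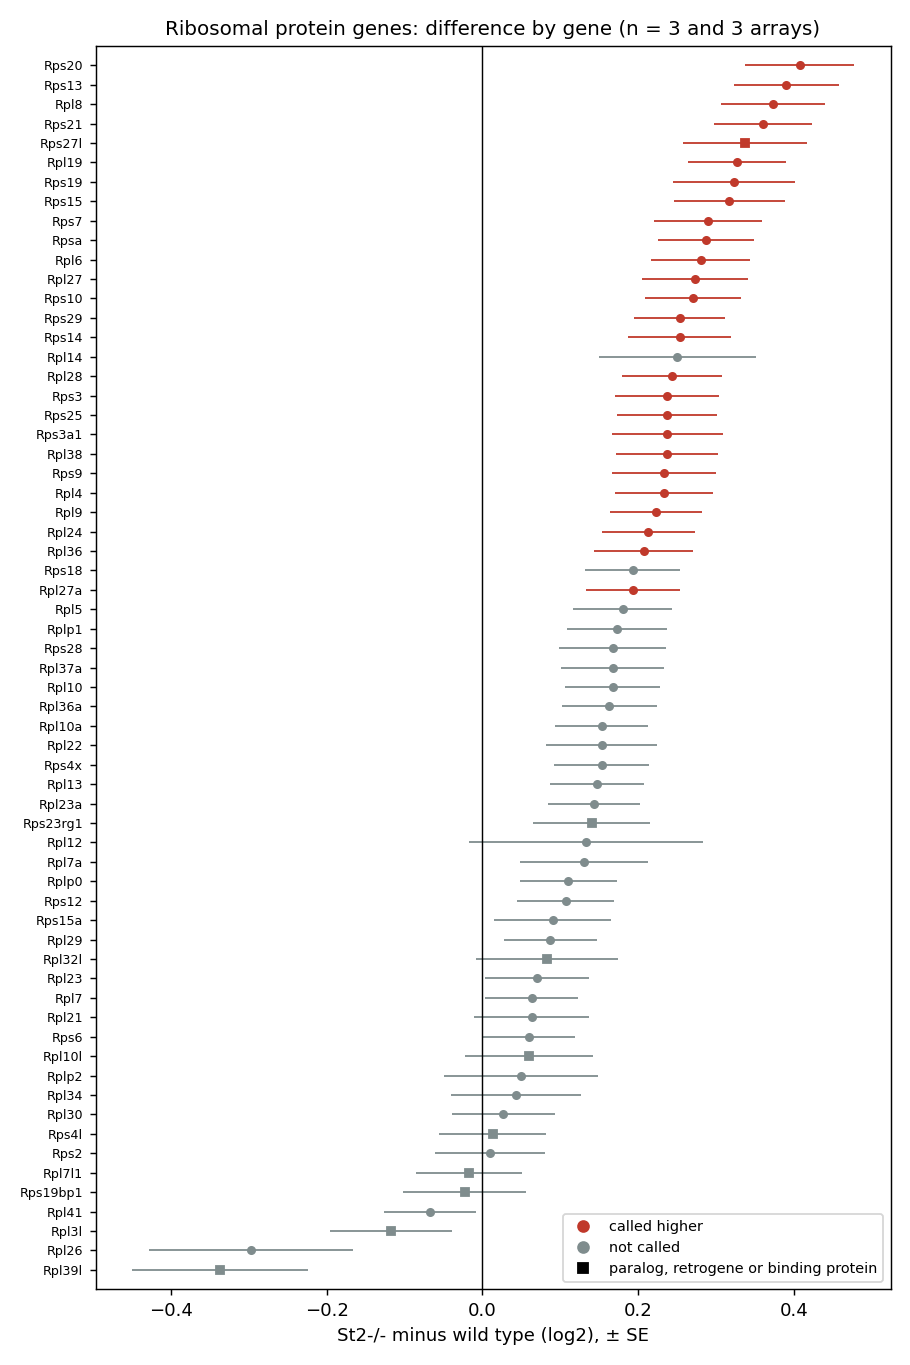
Difference between St2-/- and wild type (log2) for each of the 63 members, with the standard error from limma (n = 3 and 3 arrays), red where called higher and grey where not called, and squares for the paralogs, retrogenes and Rps19bp1. The points run from -0.34 (Rpl39l) to 0.41 (Rps20), and 57 of them lie to the right of 0.

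Of the 9 members outside the usual ribosome, 1 (11.1%) was called higher and 0 lower, against 10.7% of all genes called higher. Their median difference was 0.01, a difference from the other members that was not tested, and 1 had an unadjusted p under 0.05 in each direction. The 3 dimmest members belong here. Rpl39l, a paralog of Rpl39 known from testis, read 4.43, 4.02 and 4.35 in wild type and 4.09, 3.83 and 3.87 in St2-/-, which overlapped (-0.34 ± 0.11, SE; limma adjusted p = 0.0645). Rpl3l, the paralog of Rpl3 known from striated muscle, read 4.72, 4.48 and 4.48, and then 4.45, 4.43 and 4.45. It was lower on each St2-/- array, by 0.12 in the mean, and was not called.

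Rpl10l, the testis retrogene of Rpl10, read 4.66, 4.50 and 4.48 in wild type and 4.68, 4.47 and 4.67 in St2-/- and differed by 0.06. The assembly factor gene Rpl7l1 differed by -0.02 and its relative Rpl7 by 0.06. Rps4l differed by 0.01 and its relative Rps4x, encoded on the X chromosome, by 0.15. When all rows were tested, the Rps4x probe sets 10606075 (0.27) and 10484357 (0.34) were called higher. Its probe sets 10606939 (0.25) and 10403253 (0.21) were not called. Rps23rg1 differed by 0.14, Rpl32l by 0.08 and Rps19bp1 by -0.02. These 9 genes have dim probe sets (means of 4.10 to 8.82), and 1 of them was called. Of the 8 members of the usual ribosome with a mean under 9, 1 was called (12.5%), against 24 of 46 above it. Of all genes 10.7% were called higher. The 8 dim members of the usual ribosome had a median difference of 0.11, with 7 positive. For the 9 genes outside it the median was 0.01, with 5 positive. Whether dimness accounts for the few calls was not tested.

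Apart from Rpl39l and Rpl3l, the negative differences were small or uneven between arrays. Rpl26, a large-subunit protein that also binds the messenger RNA of p53, read 7.63, 8.17 and 7.65 in wild type and 7.57, 7.54 and 7.45 in St2-/-. Wild type replicate 2 stood apart from the other arrays, and the difference of -0.30 ± 0.13 (SE) had a limma adjusted p of 0.149. Rpl41, which encodes a very short basic peptide, had a mean of 12.03 with an SD of 0.03 over the 3 wild type arrays and of 11.96 with an SD of 0.02 over the others. It was lower on each St2-/- array and was not called. Members whose values were uneven between arrays, with groups that overlapped and no call, were Rpl14 (7.23, 7.36 and 7.12, and then 7.29, 7.65 and 7.52) and Rpl12 (7.27, 6.81 and 7.34, and then 7.15, 7.54 and 7.13).

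Ribosomal protein genes have many processed copies in the genome, so a probe set may read more than the gene it is named for, and single values are uncertain to that extent. The 63 members had 219 probe sets with a single symbol, and 39 members had more than 1. Of the 156 probe sets that did not stand for a gene, 154 had a positive difference, 46 were called higher and 0 lower when all rows were tested together. With that adjustment, 7.81% of all genes and 21.8% of the other bright genes were called higher. Some probe sets of the same gene had the same mean level and difference, as for Rps12, Rpl23a, Rpl27 and Rpl41. The 156 are therefore not independent readings. No member had another probe set called the opposite way. For 13 members a probe set that names further genes was brighter, and for 6 of these by 2 or more on the log2 scale.

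To show what lies at the starts of these genes, sequences were taken from RefSeq (GRCm38.p6) for the 51 members with an entry, 1 start per gene, from 250 bases before to 50 after it. The runs below are the 7 among the 21 called members with an entry that hold at least 8 pyrimidines in a row within 15 bases of the annotated start, printed 5′ to 3′ on the gene's strand. The capitals mark the longest pyrimidine run, and the start is the 16th base of each.
Rpl27a, chr7:109519180-109519209, plus strand: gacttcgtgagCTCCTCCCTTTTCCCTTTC
Rps10, chr17:27635230-27635259, minus strand: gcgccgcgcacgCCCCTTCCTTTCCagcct
Rpl28, chr7:4792950-4792979, plus strand: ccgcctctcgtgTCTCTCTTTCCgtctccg
Rpl4, chr9:64173372-64173401, plus strand: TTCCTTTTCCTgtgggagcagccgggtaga
Rpl38, chr11:114668565-114668594, plus strand: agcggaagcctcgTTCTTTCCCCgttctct
Rps9, chr7:3704026-3704055, plus strand: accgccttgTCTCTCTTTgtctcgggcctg
Rps27l, chr9:66946071-66946100, plus strand: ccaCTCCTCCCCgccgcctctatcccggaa

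Such a run was found in 33.3% of the 21 called members, in 33.3% of the 30 members not called (10 genes, Rps6 and Rpl7a among them) and in 11.7% of 15614 tested genes with an entry. The share was thus equal in called and not called members. A pyrimidine run near an annotated start is not a TOP tract by itself, since the annotated start need not be the first base of the messenger RNA.

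A second motif, CCGGAAG on either strand, is the core bound by factors of the ETS family such as GABP. It occurred within the 300 bases of 11 of 21 called members (52.4%), 7 of 30 members not called (23.3%) and 12.5% of all 15614 genes. For comparison, TATAA on either strand occurred in 14.3%, 33.3% and 20.9%, AAGATGG, a YY1 core, in 4.76%, 10% and 6.44%, and GCGCATGCG, an NRF1 core, in 0%, 6.67% and 2.62%. No test was made of these shares, and a match is no evidence of binding. The 100 bases before the start are printed for the 4 genes with the largest rise that hold the ETS core there, with that core in capitals on either strand.
Rps21, chr2:180257279-180257378, plus strand: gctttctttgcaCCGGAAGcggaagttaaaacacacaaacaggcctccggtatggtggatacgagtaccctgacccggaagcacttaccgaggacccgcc
Rpl19, chr11:98026610-98026709, plus strand: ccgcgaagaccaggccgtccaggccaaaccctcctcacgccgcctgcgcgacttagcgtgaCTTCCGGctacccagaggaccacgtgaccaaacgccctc
Rps7, chr12:28635954-28636053, minus strand: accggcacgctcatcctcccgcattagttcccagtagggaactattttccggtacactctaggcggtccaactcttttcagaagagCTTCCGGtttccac
Rps10, chr17:27635245-27635344, minus strand: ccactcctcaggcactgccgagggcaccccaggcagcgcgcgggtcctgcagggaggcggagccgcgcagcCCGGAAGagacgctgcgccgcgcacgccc

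Only the first match is in capitals. Counted back from the start, the core lay at bases -88 to -82 in Rps21, -39 to -33 in Rpl19, -14 to -8 in Rps7 and -29 to -23 in Rps10. It also lay in these 100 bases of the called genes Rpl38, Rps25 and Rps3a1. Members not called that held it there were Rps18, Rps6, Rpl41 (difference -0.07) and Rpl39l (-0.34, the lowest member). Rps20 and Rpl8, among the largest rises, had no entry.

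Genes whose products make or serve the ribosome are read against the share of all genes called higher (10.7%), which rose with the level: it was 14.8%, 21.2% and 26.1% in the level classes with medians of 6.96, 7.65 and 8.41. Fau, whose product is a ubiquitin-like protein fused to the small-subunit protein S30, is a ribosomal protein gene that the symbol rule leaves out. It read 11.19, 11.11 and 11.12 in wild type and 11.50, 11.38 and 11.45 in St2-/-, a difference of 0.30 ± 0.06 (SE; limma adjusted p = 0.00867). Of 24 other genes with TOP messenger RNAs 8 (33.3%) were higher and 0 lower (median difference 0.17, median level 10.19). The initiation factor subunits Eif3f (0.53), Eif3h (0.46) and Eif3k (0.35) led them. Eef1a1, the main elongation factor gene, differed by 0.16 and was not called, and Tpt1, also a TOP gene, by -0.07.

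Of 78 ribosome biogenesis genes 22 (28.2%) were higher and 0 lower (median difference 0.13, median level 7.82), with Nvl, a remodelling ATPase of the nucleolus (0.55), the small-subunit processome gene Utp14a (0.46) and the helicase gene Ddx52 (0.44) in front. Of 15 genes of RNA polymerase I and its factors 4 (26.7%) were higher and 0 lower (median difference 0.14, median level 7.37), among them Taf1b (0.38), Polr1d (0.26) and Twistnb (0.39). Of 49 translation initiation factor genes 16 (32.7%) were higher and 0 lower (median 0.13), and of 77 mitochondrial ribosomal protein genes 14 (18.2%) were higher and 0 lower (median 0.14), with Mrpl45 (0.58), Mrps18c (0.44) and Mrps18a (0.40) first by p. At a median level of 7.39, the share of the mitochondrial genes was between those of the level classes around it. The 63 members thus had a larger called share than these lists, but their probe sets are also brighter (median level 10.98, against 7.39 for the mitochondrial and 8.69 for the initiation factor genes), and the difference between lists was not tested.

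Elongation, termination and recycling factors had 4 of 20 genes (20%) higher and 1 lower (median difference 0.08, median level 7.70), a share near that of their level class. Eif5a2 (0.45) and the translocase gene Eef2 (0.29) rose, and Eef2k, the kinase that inhibits it, fell (-0.39). In growth signalling to the ribosome 5 of 29 genes (17.2%) were higher and 3 lower (median difference 0.06, median level 8.11), no larger a share than in their level class. Max, the partner of MYC (0.59), and the Rag GTPase gene Rragc (0.42) rose, as did the MAX-binding repressor gene Mxd1 (0.47) and Tsc1 (0.39) and Sesn2 (0.22), which restrain mTOR. Sesn1, which also restrains mTOR (-0.62), the MAX-binding repressor gene Mxd4 (-0.34) and Akt1s1, an mTOR inhibitor gene (-0.21), fell, so that called genes of opposing roles lay on both sides. Of 20 cytosolic tRNA synthetase genes 3 (15%) were higher and 0 lower (median difference 0.10, median level 8.32), below the share of their level class, namely Vars (0.30), Qars (0.27) and Sars (0.23).

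**Figure D4:**
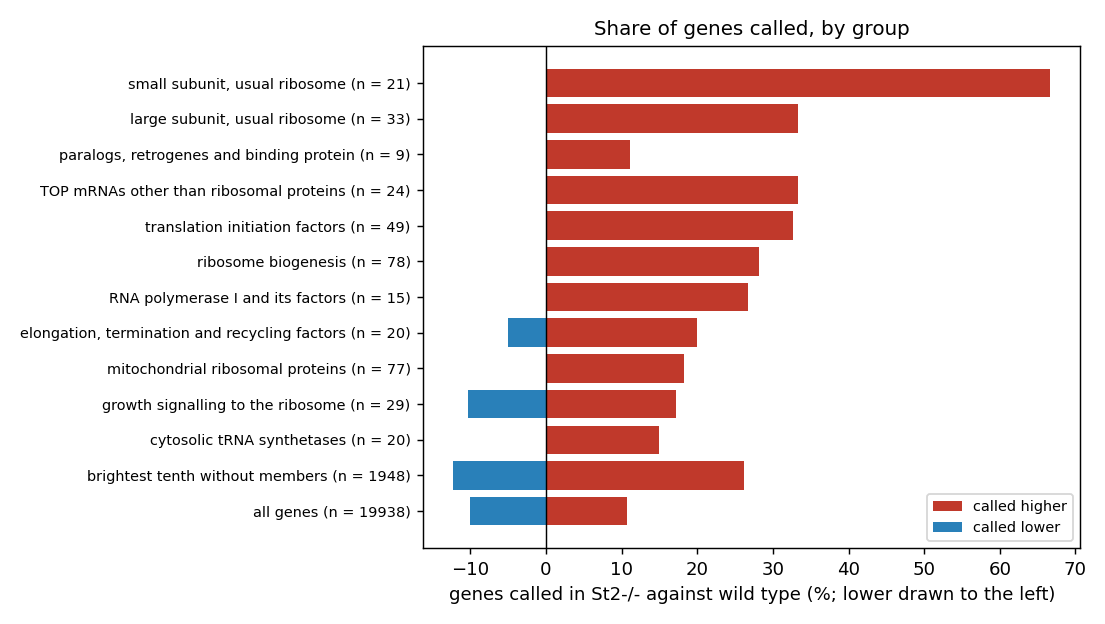
Share of genes called in limma (%), higher in red to the right and lower in blue to the left, for the ribosomal protein groups, the other translation lists, the other genes of the brightest 10% and all genes, with the number of genes beside each name. The small-subunit genes have the longest red bar (66.7%), and all genes 10.7% higher and 10.0% lower.

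Markers of other cells moved between the same groups. In a bulk sample, fewer cells of a type and less RNA per cell cannot be told apart. The summed level of 12 fibroblast markers, on the log2 scale, was 12.57 to 12.66 in wild type and 10.76 to 10.85 in St2-/-, with 8 lower and 1 higher, and that of 14 neutrophil markers 10.26 to 10.34 and 9.51 to 9.55, with 6 lower and 1 higher. The summed level of 12 dendritic cell markers was 9.94 to 10.07 in wild type and 11.60 to 11.66 in St2-/- (3 higher, 2 lower), of 14 T cell markers 9.55 to 9.63 and 10.55 to 10.61 (7 higher, 1 lower), and of 12 NK cell markers 7.62 to 7.70 and 8.55 to 8.83 (5 higher, 0 lower). A sum weighs its brightest genes most. Of the dendritic cell markers 5 had a positive and 7 a negative difference, with a median of -0.01 and a largest rise of 3.37. For the T and NK cell markers the medians were 0.16 and 0.16, and the largest rises 2.19 and 3.38.

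For 9 B cell markers the sums were 8.61 to 8.74 and 8.96 to 9.02 (2 higher, 1 lower), for 12 endothelial markers 10.46 to 10.57 and 10.32 to 10.35 (3 higher, 8 lower), and for 12 epithelial markers 9.83 to 9.97 and 9.74 to 9.82 (0 higher, 1 lower). For 29 cell cycle genes they were 13.62 to 13.67 in wild type and 13.78 to 13.82 in St2-/- (17 higher, 1 lower). The share called higher was 58.6%, with a median difference of 0.24 at a median level of 8.41, where the level class had 26.1%. That share and median were larger than those of the 63 members (41.3% and 0.17), so the rise was not particular to ribosomal protein genes. The 63 members together summed to 17.12 to 17.14 and 17.29 to 17.33. Array values have no 0, and of the dendritic, T and NK cell markers 3 of 12, 3 of 14 and 0 of 12 lay above the median level of all genes. The part of these cells and of cell division in the members' difference was not tested.

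**Figure D5:**
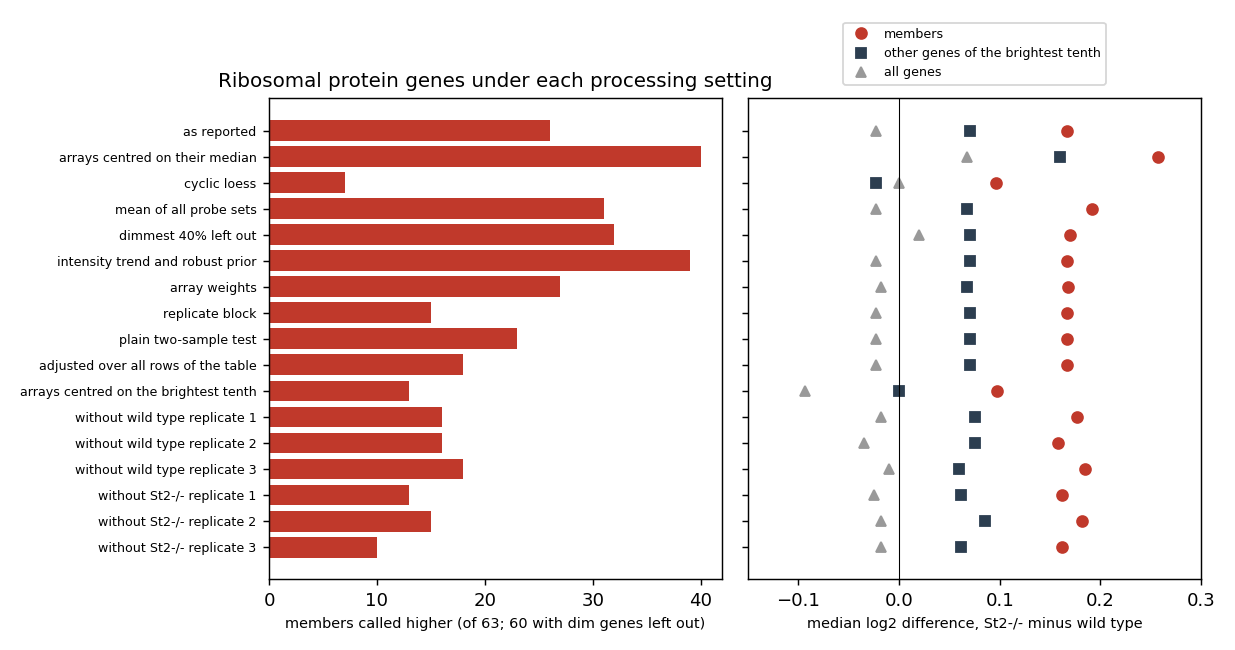
Left, number of members called higher under the reported and the 16 alternative settings. Right, median log2 difference of the members (red), of the other genes of the brightest 10% (dark squares) and of all genes (grey triangles) under each. The bars run from 7 (cyclic loess) to 40 (arrays centred on their median), and the red points lie to the right of the dark squares in each setting. Centring shifts both medians alike, and settings that change only the test or its adjustment leave both as they were.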

How the data were processed

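Total RNA was run on Affymetrix Gene 1.0 ST arrays (labels' protocols). RMA is the tool named in the submitters' processing notes, and the authors deposited 1 value per probe set and array, taken as log2 from its range. No source used here gives the RMA version, annotation or log base. RMA's quantile step hides a shift common to most genes.

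Of 35556 rows, 21789 carried 1 symbol in the platform annotation, 1621 several and 12146 none listed. All 63 members matched the reference gene table by gene ID. Groups were compared with limma 3.58.1 in R 4.3.3 (lmFit, eBayes, two-sided). The text names the 12 called members with the greatest rise (none was called lower), the 3 brightest and 3 dimmest, the paralogs and their parents, the P-stalk, Fau, and up to 3 genes per other list by smallest p. Other names were chosen after their values were seen. Rack1 was not analysed here. The members, lists and alternatives were chosen with earlier results of these data known. The alternatives were other scalings, probe set rules, filters, variance priors, array weights, a plain two-sample test, adjustment over all rows, the replicate number as a block, and leaving out each array.

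Same-numbered arrays did not deviate together (correlations of 0.01, -0.01 and -0.05 over all genes), so the replicate number was not taken as a pairing. The number of arrays limits the precision.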

Additional observations from a re-analysis of the deposited data

Results flagged for a closer look

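Probe sets that name a ribosomal protein symbol beside other genes were left out of the comparison. There were 239 of them, naming 39 symbols that meet the rule. When all rows were tested in limma, 68 (28.5%) had an adjusted p under 0.05 and were higher in St2-/-, and 1 was lower, with a median difference of 0.19 at a median level of 11.84. Adjusted in the same way, 7.81% of all genes and 21.8% of the other genes of the brightest 10% were called higher. They carry no single gene name here, and several may read the same transcript.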

How the results depend on the processing

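The median difference of the members was positive under all 16 alternatives, and 6 members were called in each. The trend and robust prior, the replicate block, the plain two-sample test and the adjustment over all rows leave the median as it is. Its sign under them is therefore no separate support. Centring shifts all genes alike, so it cannot change where the members stand relative to other genes. The number of members called higher, 26 as reported, was 40 after centring each array on its median, 7 under cyclic loess and 13 with arrays centred on the brightest 10% (added after seeing the data), and their median difference, 0.17 as reported, was 0.26, 0.10 and 0.10 there, and 0.19 with the mean of all probe sets. Under median centring, cyclic loess and bright-gene centring, 18.5%, 8.67% and 7.55% of all genes were called higher. Of the other genes of the brightest 10% it was 40%, 17.6% and 20.3%. With the replicate number as a block, 15 of all 63 members, bright or dim, were called higher (23.8%). Then 9.06% of all genes and 22.2% of the other genes of the brightest 10% were called higher. Adjusted over all rows, 18 members were (28.6%, against 7.81% and 21.8%). With a trend and robust prior the number was 39 (61.9%, against 13.5% and 37%), the cause of which was not tested. With dim genes left out it was 32 (53.3%, against 21.4% and 31.7%), where fewer genes were tested. Without the paralogs, retrogenes and binding protein, 25 were called and the median was 0.19. Leaving out 1 array gave 10 to 18 members higher, 0 to 1 lower and a median of 0.158 to 0.185. The 1 member called lower, Rpl39l, was so with the trend and robust prior, the replicate block, arrays centred on the brightest 10%, and without wild type replicate 2 or St2-/- replicate 1. Over all genes 4140 were called, 2703 by a plain two-sample test, and 2887 to 3852 with 1 array left out. Over the alternatives, the genes called higher numbered 8 to 32 of the 77 mitochondrial ribosomal protein genes and 8 to 24 of the 49 initiation factor genes. They numbered 7 to 37 of the 78 ribosome biogenesis genes and 3 to 12 of the 24 other TOP genes. In the same alternatives, 343 to 780 of the 1948 other genes of the brightest 10% and 7.35% to 21.4% of all genes were called higher. The counts of these lists moved with those of the whole table. Differences near 0.2 lie close to what 3 arrays a group can call, with a median standard error of 0.07 for the members.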
